A study of Mus musculus with 2 samples.

Results

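The genes described here are 10 markers of blood vessel endothelium, with receptors for vascular endothelial growth factor (VEGF) and for angiopoietins among them: Pecam1, Cdh5, Emcn, Ecscr, Plvap, Kdr, Flt1, Tek, Tie1 and Esam. They were taken by symbol, and all 10 were found among the 25791 gene symbols of each table. RNA came from fetal thymus at 15 days post coitum, from epithelial cells sorted as EpCAM+ and as negative for CD45 and PDGFRa, a gate that should leave out leukocytes and that holds no endothelial marker. One library is titled humanCD3eTg and comes from mice of C57BL/6J x CBA/J background. The other is titled B6J and comes from C57BL/6 mice, with no transgene given in its labels. Mice that carry many copies of human CD3E are generally known to lack T cells, whereas the treatment labels call thymocytes present in humanCD3eTg and absent in B6J. The libraries are therefore called by their titles. Strain and transgene differ together and cannot be told apart, and neither the number of mice behind a library nor any pooling is given in the sources used here.

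With 1 library per group there is no replicate check on any difference below and no test was possible. The values are FPKM, fragments per kilobase of transcript and per total of mapped fragments, so that levels can be set side by side between genes. Depth was estimated from the steps of 1 fragment in the low values, at about 15800000 fragments in humanCD3eTg and 19900000 in B6J. The sorted identity was seen in both libraries: Epcam, the surface marker of the gate, stood at 231.4 FPKM in humanCD3eTg and 173.5 FPKM in B6J, and Foxn1, the transcription factor that thymic epithelium depends on, at 43.7 FPKM in humanCD3eTg and 91.1 FPKM in B6J. Ptprc, which encodes CD45, stood at 0.358 FPKM in humanCD3eTg and 4.18 FPKM in B6J.

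Endothelial cells line blood vessels and are held together by junctions built from cadherin and immunoglobulin-type adhesion proteins. They respond to VEGF through the receptor tyrosine kinases VEGFR1 and VEGFR2, and to angiopoietins through TIE2 with its relative TIE1. In the thymus, vessels carry lymphoid progenitors in and mature T cells out, and the epithelium itself makes VEGF. These transcripts are not defining genes of the sorted cell type.

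All 10 endothelial genes were lower in humanCD3eTg than in B6J. Their summed level was 9.62 FPKM in humanCD3eTg and 54.1 FPKM in B6J, 5.62-fold lower, and single genes were between 2.93-fold and 9.24-fold lower. The median over the 10 was 0.904 FPKM in humanCD3eTg and 6.25 FPKM in B6J. All 10 were at least 2-fold lower in FPKM itself, a limit that 8.28% of 14726 genes passed in the same direction, counted among genes listed above 0 in both libraries with a mean of at least 0.5 FPKM. Of those genes 55.4% were lower in humanCD3eTg by any amount. On FPKM + 1, a scale that understates differences of low genes, 8 of the 10 were at least 2-fold lower, where 4.47% of the 13493 genes averaging at least 1 FPKM were and 2.1% were at least 2-fold higher. The median log2 ratio on this scale was -1.61 over the 10 genes and -0.05 over those 13493. Flt1 and Tek have means under 1 FPKM, and 4 of the 10 genes reached 1 FPKM in humanCD3eTg where 9 did in B6J, so the filter on the mean was met mainly through B6J. In bulk RNA, fewer endothelial cells in a sort and less RNA per cell cannot be told apart.

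**Figure D1:**
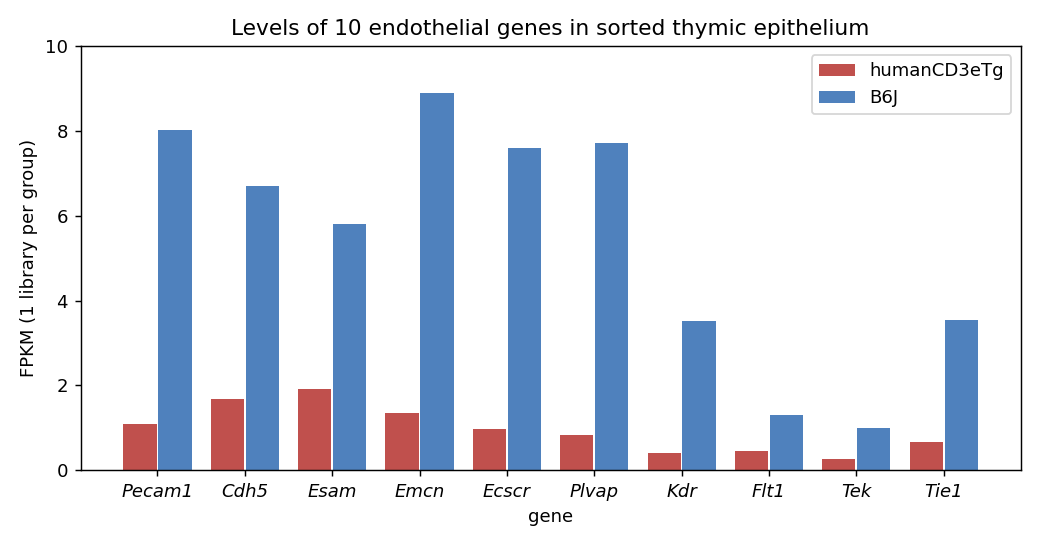
FPKM (linear axis) of each of the 10 genes in the humanCD3eTg library (red, left bar) and the B6J library (blue, right bar), 1 library per group and so without error bars. Every red bar is shorter than its blue neighbour; Esam is the tallest in humanCD3eTg at 1.91 FPKM and Emcn the tallest in B6J at 8.90 FPKM.

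The 3 junction genes differed in size of difference. Pecam1, which encodes the adhesion molecule CD31 of endothelial contacts and also of platelets and some leukocytes, had 1.10 FPKM in humanCD3eTg and 8.01 FPKM in B6J. Cdh5, which encodes VE-cadherin, the adherens junction cadherin of endothelium, had 1.67 FPKM in humanCD3eTg and 6.69 FPKM in B6J. Esam, an immunoglobulin-type molecule of endothelial tight junctions that megakaryocytes and blood stem cells also carry, had 1.91 FPKM in humanCD3eTg and 5.81 FPKM in B6J. Pecam1 was thus 7.30-fold lower, Cdh5 4.01-fold lower and Esam 3.04-fold lower. The 95% intervals of these folds from counting error alone, on estimated fragments, were 5.42 to 10.1 for Pecam1, 3.23 to 5.02 for Cdh5 and 2.22 to 4.25 for Esam. The interval of Pecam1 was separate from those of both others, while those of Cdh5 and Esam overlapped. Pecam1 stood at 0.659 times the level of Cdh5 in humanCD3eTg but at 1.20 times in B6J.

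The 3 genes for surface proteins of endothelium had the lowest summed ratio of the 4 roles, 3.17 FPKM in humanCD3eTg against 24.2 FPKM in B6J, 7.65-fold lower. Emcn, which encodes endomucin, a sialomucin of venous and capillary endothelium, had 1.36 FPKM in humanCD3eTg and 8.90 FPKM in B6J, 6.56-fold lower (counting interval 4.25 to 10.2). Ecscr, which encodes a small membrane protein of endothelium, had 0.974 FPKM in humanCD3eTg and 7.60 FPKM in B6J, 7.80-fold lower (4.41 to 15.1). Plvap, which forms the diaphragms of fenestrae and caveolae, had 0.835 FPKM in humanCD3eTg and 7.72 FPKM in B6J, 9.24-fold lower (6.15 to 15.1). The intervals of these 3 genes overlapped. Behind the humanCD3eTg values lay an estimated 25, 13 and 23 fragments of Emcn, Ecscr and Plvap, against 203, 128 and 273 in B6J, with the shortest annotated transcript of each gene, so the intervals are wide.

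The VEGF receptors did not keep their proportion. Kdr, which encodes VEGFR2, the main signalling receptor for VEGF-A, had 0.396 FPKM in humanCD3eTg and 3.51 FPKM in B6J, 8.85-fold lower (counting interval 6.25 to 12.8, from about 36 and 399 fragments). Flt1, which encodes VEGFR1, a receptor that binds VEGF-A tightly and also occurs in a soluble form, had 0.446 FPKM in humanCD3eTg and 1.31 FPKM in B6J, 2.93-fold lower (2.07 to 4.19, from about 43 and 158 fragments). The intervals were separate. Kdr stood at 0.888 times the level of Flt1 in humanCD3eTg and at 2.68 times in B6J, and the excess of Kdr seen in B6J was not seen in humanCD3eTg. There the counting intervals of the 2 levels overlapped (0.278 to 0.549 FPKM for Kdr and 0.323 to 0.601 FPKM for Flt1), and in B6J they did not (3.17 to 3.87 FPKM for Kdr and 1.11 to 1.53 FPKM for Flt1). The FPKM of Flt1 does not separate the membrane and soluble forms, and monocytes are known to carry VEGFR1.

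The angiopoietin receptor genes kept their order. Tek, which encodes TIE2, the angiopoietin receptor, was the lowest of the 10 in both libraries, with 0.269 FPKM in humanCD3eTg and 0.988 FPKM in B6J, 3.67-fold lower (2.14 to 6.57, from about 17 and 78 fragments). Tie1, which encodes a related receptor that modulates TIE2, had 0.669 FPKM in humanCD3eTg and 3.53 FPKM in B6J, 5.28-fold lower (3.80 to 7.54, from about 41 and 273 fragments). Tie1 exceeded Tek 2.49-fold in humanCD3eTg and 3.58-fold in B6J, and the intervals of their folds overlapped. For reads that relatives could share, the longest exact run common to the longest transcripts of Kdr and Flt1 was 20 bases, the longest of any pair of the 10 genes, and that of Tek and Tie1 was 17 bases.

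Because the 4 receptor genes were lower together but to unequal extents, the 250 bases before their annotated starts are given here from RefSeq (build GRCm38.p6), 5′ to 3′ on the strand of the gene. Capitals mark AGGAAG or CGGAAG on either strand, hexamers that hold the GGAA core bound by ETS factors, the transcription factor family known for endothelial gene control. The Kdr window lies at chr5:75978456-75978705 (minus strand), Flt1 at chr5:147726012-147726261 (minus strand), Tek at chr4:94739039-94739288 (plus strand) and Tie1 at chr4:118489850-118490099 (minus strand).
Kdr: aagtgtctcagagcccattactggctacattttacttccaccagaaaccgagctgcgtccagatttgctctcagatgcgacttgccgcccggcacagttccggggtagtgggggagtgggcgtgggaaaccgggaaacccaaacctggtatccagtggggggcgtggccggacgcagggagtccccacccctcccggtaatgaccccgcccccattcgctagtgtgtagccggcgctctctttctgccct
Flt1: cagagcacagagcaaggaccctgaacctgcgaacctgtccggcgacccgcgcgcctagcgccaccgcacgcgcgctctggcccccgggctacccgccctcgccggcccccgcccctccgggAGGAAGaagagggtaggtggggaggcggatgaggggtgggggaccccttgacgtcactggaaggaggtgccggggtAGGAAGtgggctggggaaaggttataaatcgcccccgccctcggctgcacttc
Tek: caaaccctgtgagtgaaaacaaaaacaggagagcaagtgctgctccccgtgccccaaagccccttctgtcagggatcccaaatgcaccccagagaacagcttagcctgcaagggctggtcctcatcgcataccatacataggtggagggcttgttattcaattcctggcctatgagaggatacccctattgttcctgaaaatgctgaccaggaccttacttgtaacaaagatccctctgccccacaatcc
Tie1: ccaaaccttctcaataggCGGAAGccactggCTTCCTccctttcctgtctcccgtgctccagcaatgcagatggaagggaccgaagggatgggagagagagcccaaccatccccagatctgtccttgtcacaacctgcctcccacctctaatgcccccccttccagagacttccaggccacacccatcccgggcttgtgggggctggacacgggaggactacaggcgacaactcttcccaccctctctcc
Flt1 held 2 such hexamers and Tie1 held 2, while Kdr and Tek held 0, and no hit overlapped another. Emcn, the remaining 1 of 5 genes found in the promoter table, also held 2. Of 32536 distinct promoter windows of this length 39.3% held at least 1, so 3 of 5 says nothing particular about these genes. TATAAA was found in Flt1 alone of the 5, beginning 31 bases before the start, and in 12.3% of all windows. The SOX-type hexamer ACAAAG was found in Tek alone (16.5% of all windows) and the GATA-type hexamer AGATAA in none of the 5 (9.97%). Kdr and Tek, the genes without a capital, were 8.85-fold and 3.67-fold lower, and Flt1 and Tie1, with 2 each, 2.93-fold and 5.28-fold lower. Emcn, also with 2, was 6.56-fold lower. Other sequences with the GGAA core were not sought, so a count of 0 does not mean that no ETS site is present. A link between hexamer number and size of difference was not tested.

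**Figure D2:**
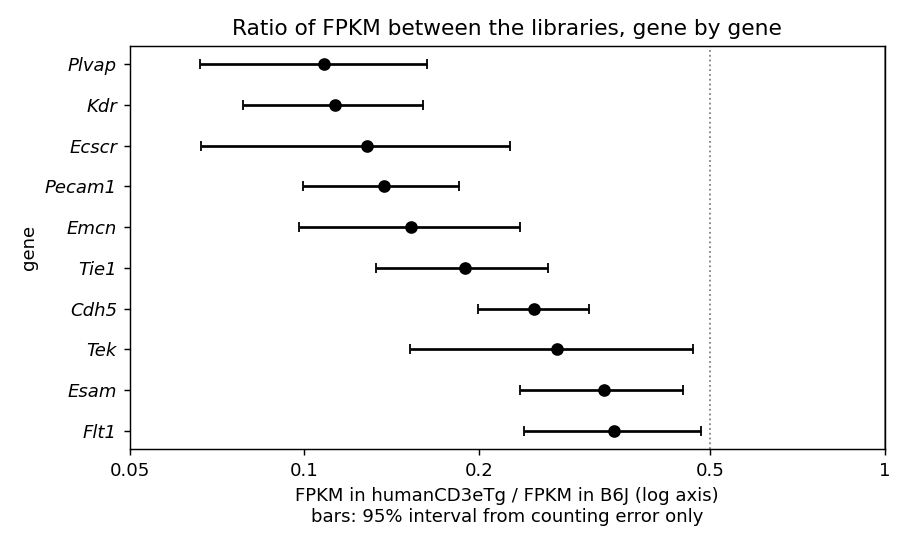
Ratio of FPKM in humanCD3eTg over B6J (log axis) for each gene, ordered with the greatest difference at the top; bars are 95% intervals for counting error only, the solid line marks 1 and the dotted line 0.5. All 10 intervals lie below 0.5, from Plvap at 0.108 to Flt1 at 0.342.

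The order of levels among the 10 genes differed between the libraries. In humanCD3eTg it ran Esam, Cdh5, Emcn, Pecam1, Ecscr, Plvap, Tie1, Flt1, Kdr and Tek, and each of the 9 pairs of neighbours had overlapping Poisson intervals of their level. In B6J it ran Emcn, Pecam1, Plvap, Ecscr, Cdh5, Esam, Tie1, Kdr, Flt1 and Tek, and 7 of 9 pairs of neighbours overlapped. The exceptions were the steps between Esam and Tie1 and between Kdr and Flt1, which set the receptors below the adhesion and surface genes and Flt1 and Tek at the bottom. Across the 10 genes Spearman's rho between the libraries was 0.67, a description of genes that share both libraries. Esam made up 19.9% of the summed FPKM in humanCD3eTg and 10.7% in B6J, and Cdh5 17.3% in humanCD3eTg and 12.4% in B6J. Plvap made up 8.68% in humanCD3eTg and 14.3% in B6J. Of the 45 pairs of genes, 12 had counting intervals of their folds that did not overlap. All 12 set Flt1, Esam or Cdh5, the genes with smaller differences, against genes with larger ones such as Plvap, Kdr or Pecam1. The other 33 pairs had overlapping intervals, and the spread between mice is unknown for all 45.

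Against the marker of the sort, the endothelial transcripts were scarce in both libraries. Emcn was 0.586% of Epcam in humanCD3eTg and 5.13% in B6J, and Tek was 0.116% of Epcam in humanCD3eTg and 0.569% in B6J.

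**Figure D3:**
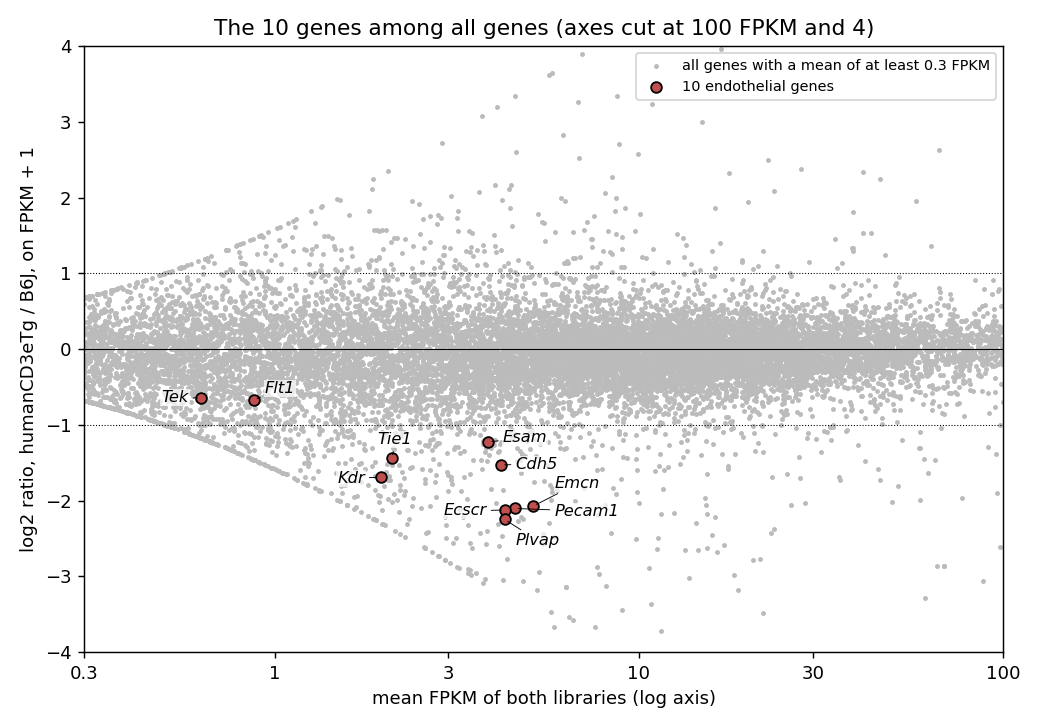
Log2 ratio of humanCD3eTg over B6J on FPKM + 1 against the mean FPKM of both libraries (log axis) for all genes in the range shown (grey) and the 10 endothelial genes (red); dotted lines mark 2-fold. The 10 genes lie below 0, and 8 of them below the lower dotted line, where 4.47% of genes averaging at least 1 FPKM lie.

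The counts of lower genes in the lists that follow are to be read beside the 55.4% of genes that were lower by any amount. That share leaves out genes at 0 in either library or averaging under 0.5 FPKM, whereas the lists count every gene found. Over all 25791 symbols, 11684 were lower and 8396 higher, with 7772 listed at 0 in humanCD3eTg and 6435 in B6J. Counts past 2-fold on FPKM + 1 are to be read beside the 4.47% lower and 2.1% higher among genes averaging at least 1 FPKM. A wider list of endothelial surface and vascular genes was lower in most but not all cases. Of 37 genes found, 33 were lower in humanCD3eTg in FPKM and 3 were higher, with a median log2 ratio of -0.57 on FPKM + 1, where the median over all 25791 symbols was 0.00. Of the 17 with a mean of at least 1 FPKM, 5 were at least 2-fold lower on FPKM + 1 and 0 were 2-fold higher, beside 4.47% and 2.1% of all genes averaging at least 1 FPKM. That scale understates differences of low genes, and this list was not counted past 2-fold in FPKM itself. Its count therefore compares only with the 8 of the 10 genes on FPKM + 1, not with the 10 in FPKM itself. Among the 5, Gpihbp1 and Cldn5 were below 1 FPKM in humanCD3eTg and passed the filter only through B6J, where they were high. Icam2, an adhesion molecule of endothelium and leukocytes, stood at 1.21 FPKM in humanCD3eTg and 4.74 FPKM in B6J. Cldn5, the tight junction claudin of endothelium, stood at 0.417 FPKM in humanCD3eTg and 2.35 FPKM in B6J. S1pr1, a receptor for sphingosine-1-phosphate that lymphocytes also use, stood at 1.36 FPKM in humanCD3eTg and 5.09 FPKM in B6J. Gpihbp1, which anchors lipoprotein lipase on capillaries, was listed at 0 in humanCD3eTg and at 5.39 FPKM in B6J. The 3 higher genes and Egfl7 are named after their values were seen. Tm4sf1 stood at 14.8 FPKM in humanCD3eTg and 9.56 FPKM in B6J, Mcam, which mural cells also carry, at 24.9 FPKM in humanCD3eTg and 18.3 FPKM in B6J, and Palmd at 0.778 FPKM in humanCD3eTg and 0.410 FPKM in B6J. Egfl7, an endothelial secreted factor, stood near equality, at 8.41 FPKM in humanCD3eTg and 8.54 FPKM in B6J.

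Transcription factors of endothelium were mixed. Of 24 found, 18 were lower and 6 higher in FPKM (median log2 ratio -0.29 on FPKM + 1), and 2 of the 12 with a mean of at least 1 FPKM were at least 2-fold lower. These were the SOX factors Sox7, at 0.165 FPKM in humanCD3eTg and 2.28 FPKM in B6J, and Sox18, at 0.223 FPKM in humanCD3eTg and 1.98 FPKM in B6J. Both act in vessel development, and both passed the filter only through B6J, being below 1 FPKM in humanCD3eTg. Foxc1 stood at 4.21 FPKM in humanCD3eTg and 7.58 FPKM in B6J, and Elk3, an ETS family gene, at 2.83 FPKM in humanCD3eTg and 4.77 FPKM in B6J. Among 14 arterial and venous genes 10 were lower, against the 55.4% given above, with Gja4, an arterial connexin, at 0.533 FPKM in humanCD3eTg and 1.97 FPKM in B6J. Ephb4, the venous ephrin receptor, stood at 16.4 FPKM in humanCD3eTg and 24.7 FPKM in B6J. Cxcr4, a chemokine receptor that thymocytes also carry, stood at 4.23 FPKM in humanCD3eTg and 11.6 FPKM in B6J. The 7 genes of lymphatic endothelium stood low for the most part, and only Pdpn and Ccl21a reached a mean of 1 FPKM. Thymic epithelium is known to express both. Pdpn stood at 14.6 FPKM in humanCD3eTg and 17.9 FPKM in B6J, and Ccl21a, which has near-identical copies and is therefore uncertain, at 33.5 FPKM in humanCD3eTg and 84.3 FPKM in B6J.

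Of the 10 ligands found for these receptors and related vascular peptides, 8 were lower and 2 higher. Vegfa, the main ligand of VEGFR2, stood at 27.0 FPKM in humanCD3eTg and 36.2 FPKM in B6J, and Vegfb, a ligand of VEGFR1, at 31.3 FPKM in humanCD3eTg and 30.1 FPKM in B6J. Placental growth factor, Pgf, another VEGFR1 ligand, stood at 2.73 FPKM in humanCD3eTg and 3.77 FPKM in B6J. Vegfc, a ligand of VEGFR3, was higher, at 1.88 FPKM in humanCD3eTg and 1.13 FPKM in B6J. The VEGF-A and VEGF-B transcripts thus differed by less than 2-fold, while their receptor genes were at least 2.93-fold lower.

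The angiopoietin genes were lower too, by larger folds than Vegfa and Pgf. Angpt1, the activating ligand of TIE2, stood at 0.993 FPKM in humanCD3eTg and 2.78 FPKM in B6J, 2.80-fold lower. Angpt2, which endothelium itself makes and which can oppose Angpt1, stood at 0.167 FPKM in humanCD3eTg and 1.28 FPKM in B6J, 7.65-fold lower. Angpt4 stood at 0.951 FPKM in humanCD3eTg and 8.36 FPKM in B6J, 8.79-fold lower. The VEGF ligand gene Figf, which encodes VEGF-D, was lower as well. It stood at 0.0377 FPKM in humanCD3eTg and 0.896 FPKM in B6J, 23.8-fold lower on very low values. The peptide hormone genes Apln and Adm were 2.25-fold and 2.15-fold lower, Apln at 0.814 FPKM in humanCD3eTg and 1.83 FPKM in B6J, and Adm at 10.4 FPKM in humanCD3eTg and 22.4 FPKM in B6J. On FPKM + 1, Angpt4 and Adm were the 2 of 8 ligand genes averaging at least 1 FPKM to pass 2-fold, both lower. Of all genes averaging at least 1 FPKM, 4.47% were 2-fold lower. Angpt4, below 1 FPKM in humanCD3eTg, passed the filter only through B6J, where it was high.

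As a list, co-receptors and signalling genes of the VEGF pathway differed less on FPKM + 1. Of 12 found, 9 were lower and 3 higher in FPKM, the median log2 ratio on FPKM + 1 was -0.26, and 0 of the 7 with a mean of at least 1 FPKM differed by 2-fold on that scale. Nrp1 and Nrp2, the neuropilin co-receptors, stood at 2.92 FPKM in humanCD3eTg and 5.23 FPKM in B6J and at 1.42 FPKM in humanCD3eTg and 1.88 FPKM in B6J. Flt4, which encodes VEGFR3, stood at 0.280 FPKM in humanCD3eTg and 0.549 FPKM in B6J. Ptprb, the endothelial phosphatase of TIE2 and VE-cadherin, stood at 0.104 FPKM in humanCD3eTg and 0.343 FPKM in B6J. Nos3, the endothelial nitric oxide synthase, stood at 0.290 FPKM in humanCD3eTg and 0.994 FPKM in B6J. The T cell adaptor gene Sh2d2a, which also binds VEGFR2, stood at 0.0516 FPKM in humanCD3eTg and 1.20 FPKM in B6J. Widely used signalling genes lay near equality, with Gab1 at 29.97 FPKM in humanCD3eTg and 29.8 FPKM in B6J, Plcg1 at 14.7 FPKM in humanCD3eTg and 16.1 FPKM in B6J, and Shc2 at 0.923 FPKM in humanCD3eTg and 0.997 FPKM in B6J. Vav3 stood at 4.23 FPKM in humanCD3eTg and 5.79 FPKM in B6J. Grb14, an adaptor of receptor tyrosine kinases, and Dok2 were higher, Grb14 at 6.08 FPKM in humanCD3eTg and 3.0 FPKM in B6J and Dok2 at 1.17 FPKM in humanCD3eTg and 0.891 FPKM in B6J.

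Genes of other cells that a sort can carry along did not all differ the way the endothelial genes did. Of 13 genes of pericytes and other mural cells, which wrap vessels, 9 were lower and 4 higher (median log2 ratio -0.61), and 1 passed 2-fold in each direction. Pdgfrb, the pericyte receptor for platelet-derived growth factor, stood at 3.19 FPKM in humanCD3eTg and 6.05 FPKM in B6J, Kcnj8 at 1.46 FPKM in humanCD3eTg and 3.88 FPKM in B6J, and Des, an intermediate filament gene, at 2.59 FPKM in humanCD3eTg and 6.29 FPKM in B6J. Tagln, a contractile gene, was higher, at 32.3 FPKM in humanCD3eTg and 7.65 FPKM in B6J, and the summed level of the mural list was 123.6 FPKM in humanCD3eTg and 109.2 FPKM in B6J. Without Tagln, the sum was lower, at 91.3 FPKM in humanCD3eTg and 101.6 FPKM in B6J. The median log2 ratio of 13 mesenchymal genes was -0.18, with Pdgfra at 0.348 FPKM in humanCD3eTg and 0.676 FPKM in B6J and Col1a1 at 66.0 FPKM in humanCD3eTg and 35.5 FPKM in B6J.

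**Figure D4:**
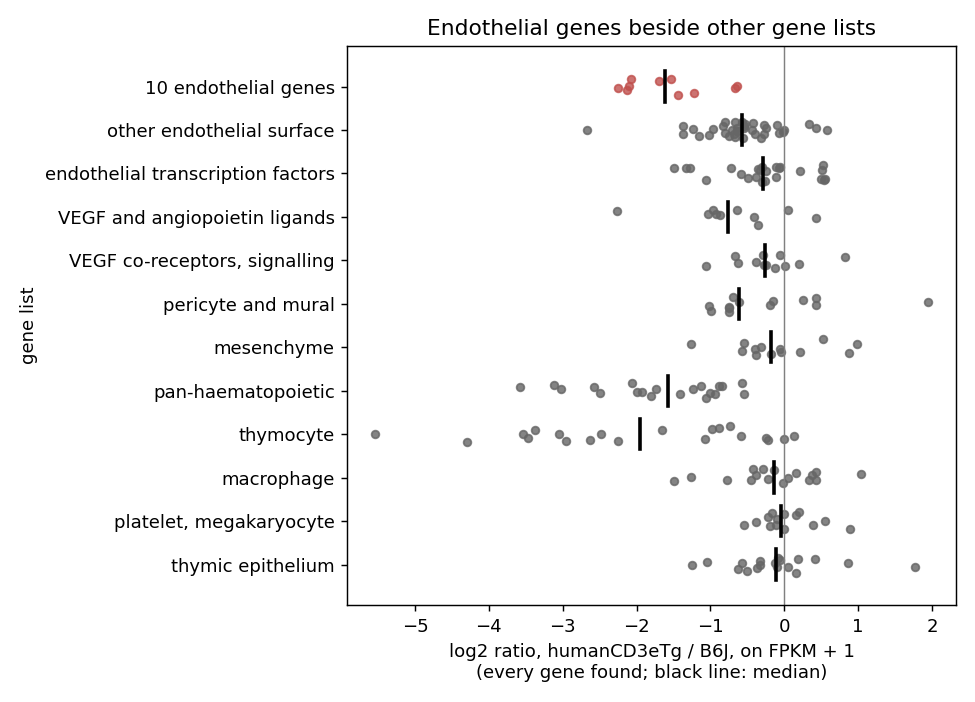
Log2 ratio of humanCD3eTg over B6J on FPKM + 1 for every gene found of each list (points) with the list median (black line), the 10 endothelial genes in red at the top. The median of the 10 genes, -1.61, lies beside -1.57 for pan-haematopoietic and -1.95 for thymocyte genes. Other endothelial surface genes (-0.57), endothelial transcription factors (-0.29) and mural genes (-0.61) lie nearer to 0. Macrophage genes (-0.14), platelet and megakaryocyte genes (-0.05) and thymic epithelial genes (-0.12) lie near 0. Only 6 of 17 macrophage and 2 of 14 platelet and megakaryocyte genes average at least 1 FPKM, and FPKM + 1 pulls ratios of low genes towards 0. This also bears on the other endothelial lists, where 17 of 37 surface genes and 12 of 24 transcription factors average at least 1 FPKM, against 8 of the 10. Among genes averaging at least 1 FPKM the median is -1.88 for the 10 genes, -0.80 for the surface list and -0.18 for the transcription factors.

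Pan-haematopoietic and most thymocyte genes were lower in the same library, while macrophage genes were mixed. All 20 pan-haematopoietic genes were lower in FPKM, with a summed level of 83.6 FPKM in humanCD3eTg and 249.3 FPKM in B6J, and of 20 thymocyte genes 18 were lower, 1 was higher and 1 was listed at 0 in both, with a sum of 32.6 FPKM in humanCD3eTg and 204.9 FPKM in B6J. Thymocyte markers Cd3d and Cd3g were listed at 0 in humanCD3eTg, and their levels in B6J were 18.7 and 45.5 FPKM. Some of the 10 genes are also known from blood cells, and the part of leukocytes in their difference was not tested. Platelet and megakaryocyte genes were mixed and summed to 9.08 FPKM in humanCD3eTg and 8.58 FPKM in B6J over 14 genes. Of the 14, 7 were lower, 5 were higher and 2 were listed at 0 in both. Pf4, a platelet chemokine, was higher, at 2.30 FPKM in humanCD3eTg and 0.780 FPKM in B6J. Gp5, the other gene of this list averaging at least 1 FPKM, was lower, at 2.86 FPKM in humanCD3eTg and 3.42 FPKM in B6J. Macrophage genes summed to 27.2 FPKM in humanCD3eTg and 30.6 FPKM in B6J over 17 genes, 10 lower and 7 higher, with Mpeg1 at 0.519 FPKM in humanCD3eTg and 3.26 FPKM in B6J and C1qb at 2.13 FPKM in humanCD3eTg and 0.524 FPKM in B6J. Red cell genes summed to 1594 FPKM in humanCD3eTg and 2613 FPKM in B6J over 12 genes, mostly haemoglobins with near-identical copies. Of the 12, 7 were lower and 4 higher. Among the 6 averaging at least 1 FPKM, 0 were 2-fold lower on FPKM + 1 and 2 were 2-fold higher. Those 2 were Hba-x, at 7.31 FPKM in humanCD3eTg and 1.13 FPKM in B6J, and Hbb-y, at 8.51 FPKM in humanCD3eTg and 2.53 FPKM in B6J. The summed level of the 10 endothelial genes in humanCD3eTg was 0.178 times that in B6J. The same ratio was 0.701 for the other endothelial surface genes, 0.862 for the arterial and venous genes and 0.958 for the endothelial transcription factors, all nearer to 1 than the ratio of the 10 genes. It was 0.335 for the pan-haematopoietic, 0.159 for the thymocyte and 0.610 for the red cell list. Single abundant genes weigh on such sums. Hey1, counted in both the arterial and venous list and the transcription factor list, had 87.7 FPKM in humanCD3eTg and 75.7 FPKM in B6J. In the surface list, which summed to 98.9 FPKM in humanCD3eTg and 141 FPKM in B6J, Mcam and Tm4sf1 weighed likewise. Mcam had 24.9 FPKM in humanCD3eTg and 18.3 FPKM in B6J, and Tm4sf1 14.8 FPKM in humanCD3eTg and 9.56 FPKM in B6J. The sums of all these lists therefore say little of their scarcer genes, such as Sox7, Sox18, Gja4 and Cldn5 above. The mural ratio was 1.13, or 0.899 without Tagln, and the thymic epithelial ratio was 1.02, or 0.938 without Krt5, a basal keratin gene at 955.5 FPKM in humanCD3eTg and 280.2 FPKM in B6J. Of the 18 thymic epithelial genes 12 were lower.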

How the data were processed

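Values in FPKM were deposited by the authors, 1 table per library. TopHat2 2.0.8, Bowtie2 2.1.0, Cufflinks 2.1.1 and build mm9 come from the submitters' processing notes, which give no roles. Annotation, use of strand and filters were not given in the sources used here, and reads of overlapping or antisense genes may therefore be mixed. Total RNA of TRIzol-lysed sorted cells went into Illumina TruSeq libraries, per the labels.

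Log2 ratios of humanCD3eTg over B6J were computed on FPKM + 1 (Python 3.11.15, pandas 2.3.3), a mean of at least 1 FPKM was the filter, and an absolute log2 ratio of 1 or more counts as 2-fold. A value of at most 0.001 FPKM is said to be listed at 0, which can be a failed estimate. Depth was found by searching, between 0.02 and 0.12 FPKM at 1 kb, the step that puts low single-transcript genes on whole fragments, with GENCODE lengths of a later build less 210 bases. The steps were 0.0632 FPKM in humanCD3eTg and 0.0502 FPKM in B6J. With them 58.3% of 458 and 58.8% of 517 low genes fell within 0.1 of a whole fragment (a step that was not fitted would give 20%). Their ratio equals the most frequent ratio of low values, 1.26, shared by 81 of 1404 genes. Fragment numbers are therefore approximate, use the shortest annotated transcript, and served for exact binomial (Clopper-Pearson) intervals of the ratio, which cover counting error only. No count test was run. The computation was tested on simulated data.

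All 10 genes, all VEGF and angiopoietin genes listed, and, from each other list, at most 4 genes of largest absolute ratio were eligible to be named, besides Ptprc, Epcam, Foxn1, Pdgfra and Pdgfrb. Tm4sf1, Mcam, Palmd, Egfl7 and Hey1 fall outside this rule and were named after their values were seen. The members and the lists were chosen with earlier results of these data known, so no pattern is independent support. Promoters of 5 of the 10 genes were found in the RefSeq table by symbol. Alternatives were other pseudocounts, filters, scalings and fold limits.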

Additional observations from a re-analysis of the deposited data

How the results depend on the processing

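The 10 log2 ratios stayed negative under each of the 6 alternatives that can change a ratio, 60 values between -3.21 and -0.18. Other pseudocounts and FPKM itself cannot change the sign of a ratio, so only the scalings could have done so. The median over the 10 genes, -1.61 on FPKM + 1, was -2.43 with a pseudocount of 0.1, -0.73 with a pseudocount of 5, -1.49 with quantile normalization and -2.56 on FPKM itself without genes listed at 0, an alternative added after the data were seen. The count of 8 genes at least 2-fold lower was 4 with a pseudocount of 5 and 4 with a limit of 4-fold. It stayed at 8 with a pseudocount of 0.1, a limit of 1.5-fold, quantile normalization and FPKM itself. Only 8 of the 10 pass the filter on the mean, so it could not rise there. Asking for a mean of at least 5 FPKM gave 1, since 1 of the 10 genes, Emcn, then passes the filter. The count over all genes used, 603, was 223 with a pseudocount of 5, 272 with a mean of at least 5 FPKM, 1471 with a limit of 1.5-fold and 171 with a limit of 4-fold. A larger pseudocount shrinks ratios of genes at these levels by construction. Median centring, and rescaling to equal totals that leave out ribosomal protein, mitochondrial and haemoglobin genes, left the count at 8 and the median within 0.1. Dropping the filter changed neither the count of 8 nor the median over the 10 genes, and could not. The median is over all 10 genes whatever the filter, and the added Flt1 and Tek are not 2-fold lower on FPKM + 1. No paired analysis was possible because each group has 1 library, and no library could be left out. Depth limits Ecscr, Tek, Plvap and Emcn most, with about 13, 17, 23 and 25 fragments in humanCD3eTg.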
